A study of Mus musculus with 8 samples.

Results

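Stratified epidermis is built by keratinocytes that divide in the basal layer, leave it, and move through spinous and granular stages before they cornify. A small set of DNA-binding factors drives these steps, and 9 of their genes are described here: Trp63, Klf4, Ovol1, Zfp750, Cebpa, Cebpb, Prdm1, Maf and Gata3. They were taken by name from a table of read counts for 46983 genes, and all 9 were found and passed the filter on low counts. p63 keeps the stratified lineage and its basal cells. ZNF750 (Zfp750), KLF4, the C/EBP proteins and MAF act later and switch on differentiation genes, and BLIMP1 (Prdm1) acts in the last living layers. Several of these genes also work in other cells of the skin, GATA3 in the inner root sheath of the hair follicle and in T cells, MAF and BLIMP1 in lymphocytes, and C/EBP proteins in sebocytes and myeloid cells.

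The study concerned the part that NIPP1 plays in epidermis. NIPP1, the product of Ppp1r8, binds the phosphatase PP1 in the nucleus. RNA came from the peeled tail epidermis of 8-week-old mice, 8 in all, with a library from each. They carried the transgene Tg(KRT14-cre)1Amc/J together with the Ppp1r8 alleles named Ppp1r8tm1Ave and Ppp1r8tm1.1Itl. The 4 CTR mice had the genotype K14-Cre/+ Ppp1r8 fl/+, that is 1 floxed and 1 wild-type allele, and the 4 SKO mice K14-Cre/+ Ppp1r8 fl/-, that is 1 floxed allele and 1 allele written as a minus. CTR mice thus carried Cre as well. The keratin 14 promoter drives Cre in basal keratinocytes and their descendants, so immune cells and melanocytes of SKO mice were not targeted by Cre and still carried the allele written as a minus.

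Library totals lay between 16696212 and 21571935 counts, and the lowest count of any of the 9 genes in any library was 1254, so that counting error was small for them. Values per library are depth-scaled counts (CPM, with TMM-adjusted library sizes). Keratin genes were abundant in every library, and the basal keratin gene Krt5 had a mean of 8793 ± 678 CPM in CTR, against 8342 ± 209 CPM in SKO (SD, 4 libraries each). Ppp1r8 counts, which sum all exons and need not show a deletion of part of the gene, were 37.9 ± 3.58 CPM in CTR and 36.4 ± 8.00 CPM in SKO (adjusted p = 0.789), so the genotype labels were used as given. Transcripts of the Y-linked genes Ddx3y, Eif2s3y, Kdm5d and Uty had 0 counts in all libraries. Xist lay at 647 to 994 CPM in CTR and 330 to 574 CPM in SKO (adjusted p = 0.00817), and its part in any result was not tested.

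Maf and Gata3 fell in SKO epidermis, and the other 7 genes did not pass the test. Of the 9 genes, 2 were lower and 0 higher at an adjusted p under 0.05 (quasi-likelihood test of edgeR, Benjamini-Hochberg adjusted over all 15638 genes tested). Among all genes tested, 23.7% were called, 12.2% lower and 11.5% higher. At an unadjusted p under 0.05 the lower genes were Maf, Gata3, Ovol1 and Zfp750, and there were 0 higher genes. The share of all genes at this looser threshold is not given here, and the 12.2% and 11.5% above do not apply to it. The median log2 fold change of the 9 genes was -0.16, against -0.003 over all genes tested, and 7 of the 9 had a lower mean in SKO. In 3 of the 9, namely Maf, Gata3 and Ovol1, every SKO library lay below every CTR library, which was so for 13.3% of all genes tested, and 12.8% had every SKO library above. Because these are bulk samples, fewer cells of a type and less RNA per cell cannot be told apart.

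**Figure D1:**
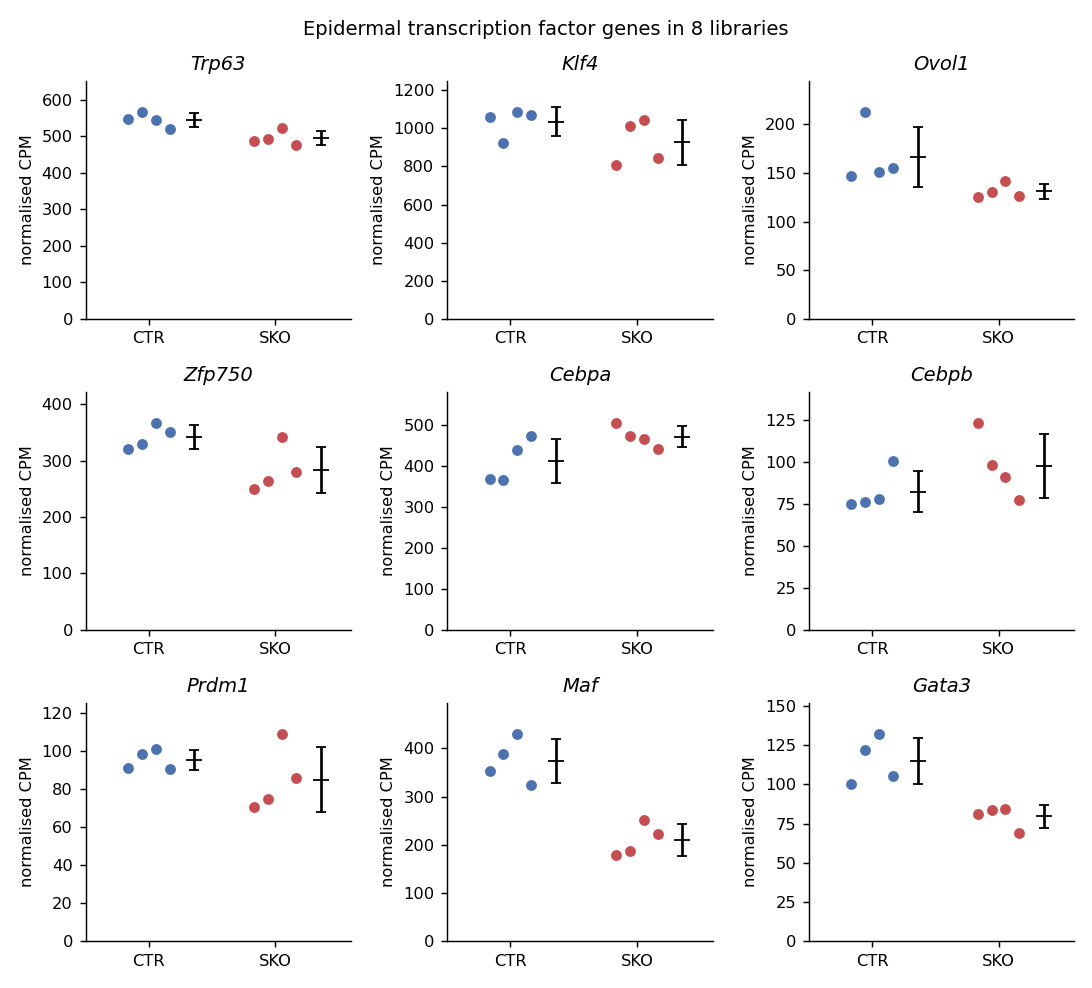
Normalised CPM (vertical axes, each from 0) of the 9 genes in the 4 CTR (blue) and 4 SKO (red) libraries, with points from left to right for replicates 1 to 4 and the mean ± SD beside them in black. The groups do not overlap for Maf, Gata3 and Ovol1, and SKO 3 is the red point nearest to the CTR points for Zfp750.

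Maf, which encodes the large Maf leucine zipper factor c-MAF, had the largest difference of the 9. The gene (ENSMUSG00000055435.6) lies on the minus strand of chromosome 8, 115682942 to 115707794 in GRCm38. CTR 1 to 4 had 353, 389, 429 and 323 CPM, and SKO 1 to 4 had 178, 187, 251 and 222 CPM. The highest SKO library, SKO 3, was below the lowest CTR library, CTR 4. Its mean was 1.79-fold lower in SKO, at 209 ± 33.3 CPM against 374 ± 45.9 CPM in CTR (SD, n = 4 each). This was a log2 fold change of -0.84 (SE 0.13, 95% interval -1.12 to -0.56, adjusted p = 0.00203). It was between -0.93 and -0.76 over 15 other settings, among them leaving out each library, with an adjusted p of at most 0.00742 in each.

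The small Maf genes, whose proteins lack a transactivation domain, were not called in SKO against CTR: Maff, Mafg and Mafk had log2 fold changes of -0.22, 0.05 and -0.24 (adjusted p = 0.167, 0.596 and 0.0805).

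Gata3 encodes a zinc finger factor that sets inner root sheath fate in the hair follicle and takes part in barrier formation in the epidermis between follicles. The gene (ENSMUSG00000015619.10) lies on the minus strand of chromosome 2, 9857078 to 9890034. CTR 1 to 4 had 100.4, 122, 132 and 105 CPM, and SKO 1 to 4 had 81.3, 83.7, 84.4 and 69.0 CPM. All 4 SKO libraries were below the lowest CTR library, and SKO 4 was the lowest of all. Means were 115 ± 14.6 and 79.6 ± 7.20 CPM (SD, n = 4 each), 1.44-fold lower in SKO. This was a log2 fold change of -0.53 (SE 0.10, 95% interval -0.76 to -0.30, adjusted p = 0.00592). Over the 15 other settings it was between -0.59 and -0.46, with an adjusted p of at most 0.0173. A second member of the GATA family that was detected, Gata6, a gene of the upper follicle and sebaceous duct, rose, from 11.7 ± 1.39 CPM in CTR to 16.9 ± 2.46 CPM (by 0.53 on the log2 scale, adjusted p = 0.0162).

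The bases in front of the main Gata3 start site are shown because Gata3 was one of the 2 called genes and the one with an entry in the RefSeq promoter table (GRCm38.p6), in which 5 of the 9 genes were found. The window is the 250 bases before the start, chr2:9878601-9878850 on the minus strand, 5′ to 3′, and capitals mark the KLF box letters CACCC and the GC box letters GGGCGG, on either strand.
Gata3: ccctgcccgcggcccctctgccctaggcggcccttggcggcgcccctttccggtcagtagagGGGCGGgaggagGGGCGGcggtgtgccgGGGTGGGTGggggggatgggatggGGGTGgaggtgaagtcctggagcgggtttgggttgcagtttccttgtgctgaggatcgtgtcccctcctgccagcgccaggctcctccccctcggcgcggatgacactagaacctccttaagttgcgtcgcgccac
The KLF box letters occurred 3 times, 2 of them overlapping in GGGTGGGTG, and the GC box letters 2 times. In all 32851 promoters of this length, 52.0% held the first and 32.7% the second. The AP-1 letters TGANTCA, the C/EBP letters TTGCNNAA, the GATA letters AGATAA and the Maf half-site letters TGCTGAC were searched on both strands and were not in this window, and they were in 6.75%, 9.56%, 9.99% and 3.81% of all promoters. Of the 250 bases of the window 175 were G or C, and the median share over all promoters was 52.4%.

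Markers of hair follicle layers were lower in the same libraries. Of 10 inner root sheath markers, all tested, 8 fell and 1, Tgm3, which cornifying epidermis also expresses, rose. Their summed level was 4955 to 9322 CPM in CTR and 606 to 3500 CPM in SKO (two-sided exact permutation p = 0.0286, the smallest possible with 4 against 4 libraries, adjusted p = 0.0714 over 10 marker lists), and none of them was at 0. Tchh, the trichohyalin gene of the inner root sheath, was 4.81-fold lower (adjusted p = 0.0275), Krt71 5.24-fold and Krt27 5.15-fold lower. These 3 calls ended with the robust fit and without CTR 2, CTR 3 or SKO 4, and that of Krt71 also without CTR 4 (adjusted p = 0.0532 to 0.100). Within SKO the summed level of the sheath markers differed 5.77-fold between the highest and lowest library, SKO 3 and SKO 1. Maf was highest and lowest in the same libraries (251 and 178 CPM, 1.41-fold), and so were the uncalled genes Klf4, Ovol1, Zfp750 and Prdm1. Of all genes tested, 29.1% were highest in SKO 3 and 29.0% lowest in SKO 1 among SKO libraries. Gata3 was at 84.4 and 81.3 CPM in SKO 3 and SKO 1, and its highest SKO library, SKO 3, was 1.22 times its lowest, SKO 4. Of 11 hair shaft markers measured, 10 fell, with summed levels of 5214 to 8619 CPM in CTR and 401 to 2574 CPM in SKO (exact permutation p = 0.0286, adjusted p = 0.0714). Of the hair keratin-associated protein genes, Krtap8-1 was 9.96-fold lower (adjusted p = 0.00315) and Krtap3-1, the most abundant marker of the list, 2.26-fold (adjusted p = 0.0403), a call that ended with the robust fit and without any of the CTR libraries or SKO 2 (adjusted p = 0.0683 to 0.106). The part of hair follicle content in the falls of Gata3 and Maf was not tested.

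T cells also express Gata3 and Maf. Of 12 T cell markers, 8 were tested, and Cd3e, Trbc2, Trdc and Il7r rose while Thy1 fell. Their summed level was 25.6 to 40.0 CPM in CTR and 32.8 to 44.1 CPM in SKO (exact permutation p = 0.0857, adjusted p = 0.107). Trbc2, which encodes a T cell receptor constant region, rose 1.85-fold, and the surface protein gene Thy1, the most abundant of them, fell 1.72-fold. The part of T cells in the values of Maf and Gata3 was not tested. Cd3g, Cd3d, Trac and Cd2 were under 1 CPM in every library. Langerhans and myeloid markers had 6 of 10 tested genes higher and 0 lower, at 261 to 335 CPM in CTR and 358 to 492 CPM in SKO (exact permutation p = 0.0286, adjusted p = 0.0714), of which Epcam, also a keratinocyte gene, was the most abundant. Cd74, the invariant chain gene of antigen-presenting cells, rose 1.83-fold. Lyz2 and Adgre1, macrophage genes, stayed under 1 CPM.

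Trp63, the gene of the lineage factor p63, was one of the steadiest of the 9. It lies on chromosome 16, 25683763 to 25892102, plus strand (ENSMUSG00000022510.14), and its count joins the full-length and the shorter DeltaN transcripts. CTR libraries had 546, 566, 545 and 520 CPM and SKO libraries 487, 493, 522 and 476 CPM. Only SKO 3 reached the CTR range, just above CTR 4. On the log2 scale the fold change was -0.14 (SE 0.07, 95% interval -0.29 to 0.01, adjusted p = 0.164), so that a fall of more than 0.29 on the log2 scale lies outside the interval. The relatives Trp53 and Trp73 had log2 fold changes of -0.18 and 0.16 (adjusted p = 0.115 and 0.273).

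Of 25 genes of the basal layer, many of them known p63 targets, 9 fell and 0 rose, with a median log2 fold change of -0.19. As shares of the 25 genes these were 36% and 0%, against 12.2% lower and 11.5% higher among all genes tested. Fras1 and Igfbp3, a matrix adhesion gene and an IGF-binding protein gene, had the largest falls, 2.97-fold and 2.87-fold (adjusted p = 0.0177 and 0.0166), and both calls ended with the robust fit (adjusted p = 0.0641 and 0.0610). Itgb4, whose integrin sits in hemidesmosomes, was at 351 ± 47.4 CPM in CTR and fell 1.85-fold (adjusted p = 0.00123). Fgfr2, a receptor of keratinocyte growth factors, was at 249 ± 15.8 CPM in CTR and fell 1.54-fold (adjusted p = 0.0011). Its annotated span overlaps that of Ctbp2 on the same strand, and shared exon bases were not examined. The p63 targets Krt5 and Krt14, the keratin pair of the basal layer, had log2 fold changes of -0.08 and 0.10 (adjusted p = 0.552 and 0.485).

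Zfp750 encodes the p63 target ZNF750, which switches on late differentiation genes and works with the demethylase KDM1A. It lies on chromosome 11, 121510978 to 121519333, minus strand (ENSMUSG00000039238.6), inside the span of Tbcd on the other strand, with 0 exon bases shared. CTR libraries had 320, 329, 366 and 351 CPM and SKO libraries 249.9, 263, 342 and 279 CPM. Libraries SKO 1, SKO 2 and SKO 4 were below all CTR libraries, and SKO 3 lay among them. With a log2 fold change of -0.27 (SE 0.10, 95% interval -0.50 to -0.04) it missed the threshold (adjusted p = 0.0839). Without SKO 3 it was -0.37 and past it (adjusted p = 0.00994), as it also was with DESeq2 (adjusted p = 0.0469) and with mice of neighbouring identifiers as a block (-0.28, adjusted p = 0.0316).

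Klf4, a Krüppel-like factor needed for the skin barrier, lies on chromosome 4, 55527143 to 55532466, minus strand (ENSMUSG00000003032.8). CTR libraries had 1060, 923, 1086 and 1071 CPM, and SKO libraries had 807, 1012, 1045 and 847 CPM. The 2 groups overlapped, with SKO 1 and SKO 4 below every CTR library and the other two SKO libraries between CTR 2 and the remaining CTR libraries. Klf4 had a log2 fold change of -0.16 (95% interval -0.39 to 0.07, adjusted p = 0.291). Among its relatives, Klf9 fell by 0.82 (adjusted p = 0.047) and Klf2, a gene of lymphocytes and endothelium as well, rose by 1.27 (adjusted p = 0.0295), from 2.75 ± 0.808 CPM in CTR to 6.70 ± 3.92 CPM. The Klf9 call ended with the robust fit, with limma voom and without any 1 of CTR 1, CTR 2, CTR 3, SKO 1, SKO 2 and SKO 4 (adjusted p = 0.0528 to 0.119), and without CTR 2 its log2 fold change was -0.54. The Klf2 call ended without CTR 1, CTR 2 or CTR 3 (adjusted p = 0.0750 to 0.0761), and without SKO 4 its log2 fold change was 0.78.

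Ovol1 encodes a zinc finger repressor that helps late progenitors stop dividing, and lies on chromosome 19, 5549136 to 5560646, minus strand (ENSMUSG00000024922.1). CTR libraries had 147, 213, 151 and 155 CPM, and SKO libraries had 125, 129.9, 142 and 126 CPM. Every SKO library was below every CTR library, and CTR 2 stood apart above the other CTR libraries. Ovol1 had a log2 fold change of -0.35 (SE 0.12, 95% interval -0.61 to -0.09, adjusted p = 0.0567). It was -0.21 without CTR 2 (adjusted p = 0.0892). The test passed its threshold with DESeq2, with the robust fit and without SKO 3 (adjusted p = 0.0264, 0.0464 and 0.0491), and with mice of neighbouring identifiers as a block (-0.33, adjusted p = 0.0470). A pair of annotated genes on the opposite strand, Gm31166 and AC126029.1, share 690 and 76 exon bases with Ovol1 and were not analysed here. Ovol2, its relative, had 3.43 ± 0.609 CPM in CTR and 3.10 ± 0.302 CPM in SKO.

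Cebpa and Cebpb encode leucine zipper factors that together take keratinocytes out of the cell cycle, and both had higher means in SKO without passing the test. Cebpa (ENSMUSG00000034957.10, chromosome 7, 35119293 to 35121928, plus strand) had 368, 366, 439 and 471 CPM in CTR and 504, 473, 466 and 441 CPM in SKO. Its groups overlapped through CTR 4, and the log2 fold change was 0.20 (95% interval -0.02 to 0.41, adjusted p = 0.172). Cebpb (ENSMUSG00000056501.3, chromosome 2, 167688915 to 167690418, plus strand) had 75.0, 75.9, 77.6 and 100.5 CPM in CTR and 123, 98.3, 90.8 and 77.4 CPM in SKO. Libraries SKO 2, SKO 3 and SKO 4 lay within the CTR range, CTR 3 and CTR 4 lay within the SKO range, and the log2 fold change was 0.24 (95% interval -0.08 to 0.56, adjusted p = 0.242). Exons of Cebpb share 312 bases with Tmem189 on the opposite strand, which rose by 0.32 on the log2 scale (adjusted p = 0.0258). Whether the counting used strand, which the library kit kept, is not given in the sources used here, so the Cebpb value is uncertain in these bases. Genes that share exon bases with Cebpa, Maf and Gata3 had at most 0.279% of the counts of these 3 genes, but reads that could fall to either gene may have been left out of both, which was not tested. The antisense gene Gm15655 shares 440 bases with Maf, its whole exon length.

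Prdm1, the gene of BLIMP1, lies on chromosome 10, 44437177 to 44528501, minus strand (ENSMUSG00000038151.12). CTR libraries had 90.9, 98.3, 101 and 90.4 CPM, and SKO libraries had 70.7, 75.0, 109 and 85.6 CPM. SKO 3 was above all CTR libraries and the other SKO libraries were below them. Its log2 fold change was -0.16 (95% interval -0.44 to 0.11, adjusted p = 0.367), and without SKO 3 it was -0.30 and past the threshold (adjusted p = 0.0271). Sebaceous gland markers, from a gland in which Prdm1 is also active, had 3 of 12 higher and 0 lower, with Mgst1 1.54-fold and Elovl3, the most abundant, 1.39-fold higher (adjusted p = 0.00141 and 0.0306, the latter lost without CTR 1, CTR 2, CTR 3, SKO 2 or SKO 4, at 0.0680 to 0.0827), and a summed level of 1607 to 2061 CPM in CTR and 1989 to 2458 CPM in SKO (exact permutation p = 0.0571, adjusted p = 0.0816).

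**Figure D2:**
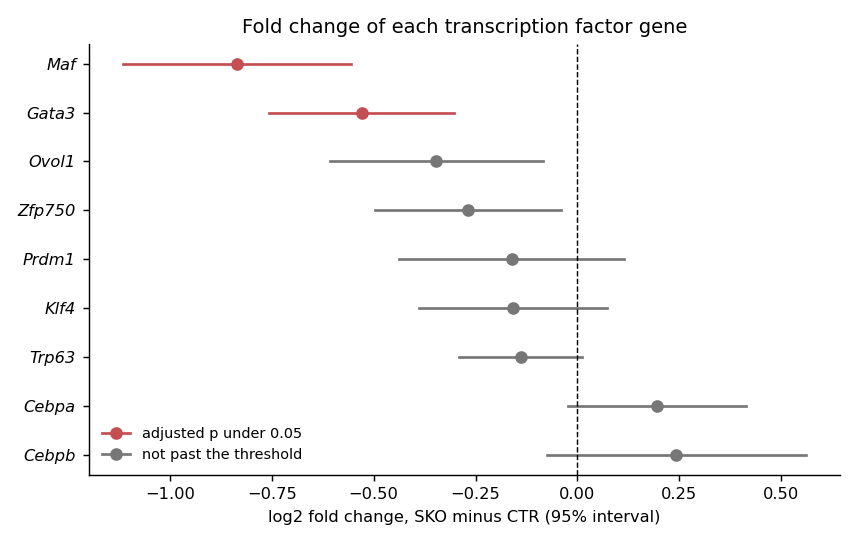
Log2 fold change of each gene, SKO minus CTR (horizontal axis), with its 95% interval from the edgeR fit, over 4 libraries per group. Maf and Gata3 (red) passed an adjusted p under 0.05. The intervals of Ovol1 and Zfp750 (grey) also lie below 0, but their adjusted p-values, 0.0567 and 0.0839, missed the threshold.

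The 4 SKO libraries were not alike. SKO 3 had the highest SKO level for 7 of the 9 genes, all except Cebpa and Cebpb, where 29.1% of all genes tested were highest in SKO 3. SKO 1 had the lowest SKO level for 5 of the 9 and SKO 4 for the remaining 4 genes. Of all genes tested, 29.0% were lowest in SKO 1 and 22.4% in SKO 4. SKO 3 was also the SKO library with the highest summed hair shaft and inner root sheath markers, 2574 and 3500 CPM. Without SKO 3, 5 of the 9 genes were lower (Maf, Gata3, Zfp750, Ovol1 and Prdm1), when 27.6% of all genes tested were called, 14.6% lower and 13.0% higher. DESeq2 called 4 of the 9 lower (Maf, Gata3, Ovol1 and Zfp750), when it called 27.5% of all genes, 14.3% lower and 13.3% higher. A fit with neighbouring mouse identifiers as a block also called these 4 lower, when it called 27.6% of all genes, 14.7% lower and 12.9% higher. The part of follicle content in the position of SKO 3 was not tested.

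**Figure D3:**
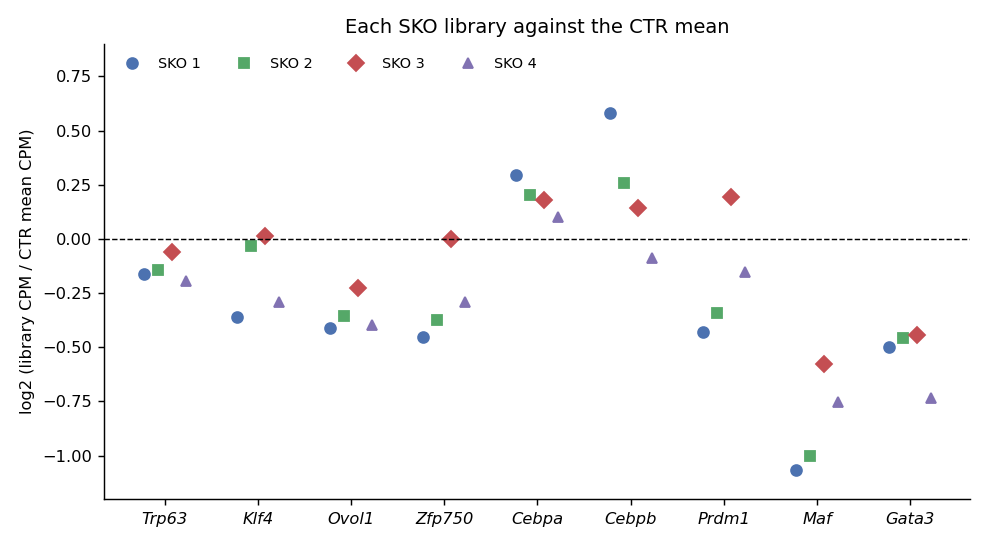
Log2 ratio of each SKO library's CPM to the CTR mean (vertical axis) for the 9 genes, with 1 symbol per SKO library and the CTR mean at 0. SKO 3 (red diamonds) is the highest SKO library for 7 of the 9 genes, and all 4 libraries lie below 0 for Trp63, Ovol1, Maf and Gata3.

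Per kilobase of exons, the 9 genes kept much of their order of level. In CTR, Klf4 was the most abundant at 340 ± 24.7 CPM per kb, followed by Cebpa at 156 ± 20.01, Zfp750 at 106 ± 6.44 and Trp63 at 64.9 ± 2.23 (SD, n = 4). Cebpb, Ovol1 and Maf followed at 54.7 ± 8.13, 47.7 ± 8.90 and 45.4 ± 5.57 CPM per kb. From Trp63 to Maf each gene overlapped its neighbour in this order over the libraries. Gata3 at 28.9 ± 3.67 and Prdm1 at 17.1 ± 0.947 CPM per kb were the lowest, and neither overlapped the gene above it. In SKO the ranges of Maf and Ovol1 no longer overlapped, at 25.4 ± 4.04 and 37.6 ± 2.22 CPM per kb, while those of Gata3 and Prdm1 did, at 20.01 ± 1.81 and 15.2 ± 3.06 CPM per kb.

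Genes with the pattern most like that of Maf and Gata3 were sought by the root mean square difference of log2 CPM from the CTR mean over the 8 libraries, among the 11546 other tested genes whose mean reached 5 CPM. Those nearest to Maf were Clk3, Pgap1 and Rbm5, which differed from it by 0.0966, 0.102 and 0.1101 log2 units. They had log2 fold changes of -0.74, -0.73 and -0.75 (adjusted p = 0.0017, 0.00458 and 0.000513). Nearest to Gata3 were Trmt2b, Lyplal1 and Adamtsl4, at 0.0483, 0.0861 and 0.0997 log2 units. Their log2 fold changes were -0.50, -0.50 and -0.53 (adjusted p = 0.00537, 0.0349 and 0.0257). Because the SKO libraries were part of the measure, fold changes close to those of Maf and Gata3 follow from the choice of these genes. The fold changes and adjusted p-values of these nearest genes are therefore descriptions and not separate results.

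Of 35 other transcription factors of epidermis and follicle, 7 fell and 5 rose, with a median log2 fold change of -0.02. Those that fell made up 20% of the 35 and those that rose 14.3%, against 12.2% and 11.5% of all genes tested. The count of lower factors was 10 without SKO 3 and 3 to 5 without any other library. Elf5, an ETS factor, was at 45.3 ± 10.1 CPM in CTR and fell 3.06-fold (adjusted p = 0.00517). Dlx3, a homeobox gene of hair and suprabasal epidermis, fell from 169 ± 30.5 to 71.0 ± 24.3 CPM and Foxn1, the gene mutated in nude mice, from 153 ± 8.74 to 67.3 ± 21.1 CPM (adjusted p = 0.00486 and 0.00226). Ets1, which lymphocytes also express, was at 4.29 ± 0.774 CPM in CTR and rose 2.52-fold (adjusted p = 0.000513). The grainyhead factors Grhl1, Grhl2 and Grhl3 had log2 fold changes of -0.23, -0.18 and -0.10, none of them called. Of 32 relatives of the 9 genes, 23 were tested, 2 rose (Klf2 and Gata6) and 2 fell, among them Klf9. This was 8.7% in each direction, below the 11.5% higher and 12.2% lower of all genes. With the block of neighbouring identifiers 4 of the relatives rose and 5 fell.

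Of 11 cofactors and regulators of these factors, 6 fell (54.5%) and 0 rose, against 12.2% and 11.5% of all genes. The list's median was -0.25. The count of lower genes was 6 without SKO 3 and 1 to 3 without any other library. Kdm1a, the demethylase partner of ZNF750, fell by 0.29 on the log2 scale (adjusted p = 0.0126), to 70.9 ± 4.39 CPM from 86.6 ± 2.89 CPM in CTR. The histone deacetylase gene Hdac1 fell by 0.48 on the log2 scale (adjusted p = 0.0221) and the corepressor gene Ctbp2 by 0.34 (adjusted p = 0.0301). Ctbp2 (chromosome 7, 132987563 to 133124354) overlaps the annotated span of Fgfr2 (130162451 to 133123350) on the same strand. Exon bases shared by Ctbp2 and Fgfr2 were not examined. The Hdac1 call ended without CTR 2, CTR 3 or SKO 4, and that of Ctbp2 without CTR 1, CTR 2, CTR 3, SKO 1 or SKO 4 (adjusted p = 0.0529 to 0.0828). Hdac1 (129516104 to 129542713) and Kdm1a (136550540 to 136602723) lie on chromosome 4, on either side of the targeted gene Ppp1r8 (132826929 to 132843169). The part of this position, where the alleles of the groups differ, in the falls of Hdac1 and Kdm1a was not tested.

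Called shares in the spinous list, 10% higher and 10% lower, were near those of all genes, 11.5% and 12.2%. Of 20 spinous genes, the keratin pair Krt1 and Krt10 rose 7.38-fold and 1.99-fold (adjusted p = 9.43e-05 and 0.000486), while Mt4 and Dsg1a fell (log2 fold changes -0.36 and -0.31, adjusted p = 0.0445 and 0.0252) and the list's median was -0.05. The Mt4 call ended with upper-quartile factors and without any library other than CTR 2 and SKO 1, and that of Dsg1a without any library other than CTR 4 and SKO 3 (adjusted p = 0.0554 to 0.116). Of 38 granular and cornified envelope genes, 8 rose and 1, Dsg1a, fell, with a median of 0.11. Called in either direction were 23.7% of this list, the same share as of all genes, with 21.1% higher and 2.63% lower. With the block of neighbouring identifiers 5 granular genes fell and 4 spinous genes rose. Rptn, the gene of the envelope protein repetin, rose 2.51-fold, from 315 ± 108 CPM in CTR (adjusted p = 0.00634), and the filaggrin gene Flg 1.99-fold, from 225 ± 36.7 CPM in CTR (adjusted p = 0.015). The transglutaminase gene Tgm5 rose 1.91-fold and the protease gene Asprv1 1.81-fold (adjusted p = 0.00102 and 0.00459). Loricrin (Lor) rose by 0.83 on the log2 scale (adjusted p = 0.00345), while involucrin (Ivl) had a log2 fold change of 0.19 (adjusted p = 0.362).

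**Figure D4:**
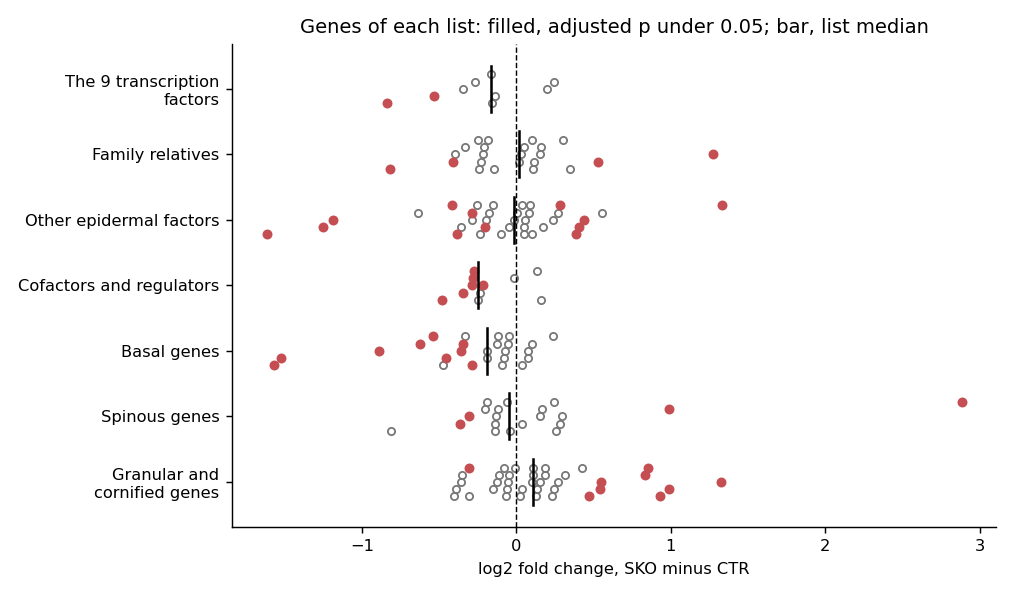
Log2 fold change, SKO minus CTR (horizontal axis), of every tested gene in the set of 9 and in 6 lists of related genes. Filled red points passed an adjusted p under 0.05, open grey points did not, and black bars are list medians. Basal genes have filled points only below 0, and granular genes have all but 1 of theirs above 0.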

How the data were processed

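RNA-seq counts of tail epidermis from 4 CTR and 4 SKO mice were used. Per the labels' protocols, skin was kept in dispase for 5 h and the epidermis separated, and stranded poly-A libraries were read as 75 bp single reads. The deposited values are raw read counts per Ensembl gene, 1 column per mouse. The submitters' processing notes name cutadapt 1.7.1, Bowtie2 2.2.4, STAR 2.4.1d, featureCounts 1.4.6, edgeR 3.8.6 and GRCm38, and for the annotation release, strand setting and treatment of multiply mapping reads nothing is given in the sources used here. Columns were matched to mice by the identifier in the labels. Symbols, positions and exon lengths came from GENCODE M21 (46488 of 46983 identifiers matched).

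The test was that of edgeR 4.0.16, run in R 4.3.3 on the deposited counts (quasi-likelihood, two-sided, TMM factors, filterByExpr defaults, group as the only term), with Benjamini-Hochberg adjustment over 15638 genes and a threshold of 0.05, and the script was tested on simulated data. Summed marker levels had a two-sided exact permutation test each (scipy 1.17.1). Alternatives were DESeq2 1.42.0, limma 3.58.1 (voom), other factors and filters, a robust fit and leaving out each library. A block of mice with neighbouring identifiers, 1 of each group, was added after seeing the data. The labels do not say what neighbouring identifiers mean, but the deviations of such mice from their group means correlated over 15638 genes in all 4 pairs (r = 0.301, 0.3998, 0.152 and 0.205, genes not being independent), and 3 of the 4 SKO libraries correlated best with their neighbour. No 2 libraries of a group agreed within sampling noise. The 9 genes and all lists were chosen with earlier results of these data known. The genes named were the 9, Ppp1r8, up to 4 called genes with the largest change per list at a mean of at least 1 CPM, the most abundant marker of each list with called ones among its top 4, and the 3 nearest patterns. Other genes (the sex-linked genes, overlapping genes and the uncalled relatives, grainyhead, basal keratin, Lor and Ivl values, and called or undetected markers outside the rule) were named after their values were seen. Some genes that the rule names are not reported here. Neutrophil, fibroblast, melanocyte, endothelial and keratinocyte markers were also summed (closing section).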

Additional observations from a re-analysis of the deposited data

Results flagged for a closer look

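Of 20 groups of 4 libraries examined (the 9 genes and Ppp1r8, each in CTR and in SKO), 3 held a library far from the others of its group, where chance alone gives about 1 in 20. Klf4 in CTR 2 was low, at 923 CPM, with the other CTR libraries at 1060 to 1086 CPM. Ovol1 in the same library was high, at 213 CPM, with the others at 147 to 155 CPM, and without it the log2 fold change was -0.21 in place of -0.35. Cebpb in CTR 4 was high, at 100.5 CPM, with the others at 75.0 to 77.6 CPM, and without it the log2 fold change was 0.35 in place of 0.24 (adjusted p = 0.0998).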

How the results depend on the processing

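For the 9 genes, all 135 values under 15 alternatives kept their direction and 129 their side of the threshold. The other 6, all now past it, were Ovol1 and Zfp750 with DESeq2, Ovol1 with the robust fit, and Ovol1, Zfp750 and Prdm1 without SKO 3. The count of lower genes among the 9 was 4 with DESeq2 and 2 to 5 when leaving out a library (5 without SKO 3), and of higher genes 0 throughout. Over all genes, 1253 to 2058 were higher and 1336 to 2312 lower when leaving out a library. Lower relatives were 1 with the robust fit and 1 with limma voom, lower epidermal factors 4 with library totals, lower cofactors 3 with no count filter, lower spinous genes 1 with upper-quartile factors, and lower granular genes 5 with DESeq2, 2 with library totals, 3 with no count filter, 3 with the robust fit and 2 with limma voom. The cause was not tested. Leaving out 1 library gave 1 to 3 higher and 0 to 4 lower relatives, 3 to 5 and 3 to 10 epidermal factors, 0 and 1 to 6 cofactors, 0 and 7 to 11 basal genes, 2 to 3 and 0 to 3 spinous genes, and 7 to 10 and 0 to 4 granular genes, and in each of these 6 lists the highest count of lower genes came without SKO 3. The log2 fold change of Ppp1r8 was then -0.212 to 0.0476 (0.0476 without SKO 2), against -0.0598. With 3 against 4 libraries the exact test cannot go below 0.0571. With neighbouring identifiers as a replicate block, 4 of the 9 genes were lower (Ovol1 and Zfp750 in addition), 4 relatives rose and 5 fell, 4 spinous genes rose and 5 granular genes fell. The block changed no other call of the 9 genes or of the other genes named by rule.

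The difference of summed fibroblast markers, SKO minus CTR, was 1.22 CPM (-3.79 to 9.0005 when leaving out a library, with -0.88 without CTR 3, -0.49 without CTR 4, -3.26 without SKO 2 and -3.79 without SKO 4). The fibroblast gene Dcn had a log2 fold change of 0.15, which was -0.0405 with limma voom and -0.0939 to 0.441 when leaving out a library (-0.0939 without SKO 2).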

Other observations

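Markers of other cells in the sheet gave the following summed levels, none past the threshold over 10 lists. With 4 against 4 libraries the exact p cannot go below 0.0286, and lists that reached it had an adjusted p of 0.0714. Missing the threshold therefore does not show that a level was unchanged. Melanocyte markers had 249 to 364 CPM in CTR and 332 to 556 CPM in SKO, with 4 of 8 higher, among them Dct, a melanin synthesis gene (1.72-fold, adjusted p = 0.0125), and Mitf, their transcription factor gene, lower (1.45-fold, adjusted p = 0.0101) (sums, exact permutation p = 0.0571, adjusted p = 0.0816). Neutrophil markers had 10.9 to 28.4 CPM in CTR and 25.8 to 311 CPM in SKO, of which S100a8 and S100a9, which stressed keratinocytes also express, had means of 4.95 and 3.04 CPM in CTR and 80.8 and 63.8 CPM in SKO, while Ngp was at 0 and Ly6g, Csf3r, Elane and Camp were under 1 CPM in all libraries (sums, exact permutation p = 0.0571, adjusted p = 0.0816). Fibroblast markers had 35.3 to 56.0 CPM in CTR and 19.4 to 57.8 CPM in SKO (exact permutation p = 0.743), and endothelial markers at most 4.72 CPM in CTR and 2.28 CPM in SKO (exact permutation p = 0.171). The 8 keratinocyte markers, led by Krt10, had 32832 to 37887 CPM in CTR and 57197 to 74550 CPM in SKO (exact permutation p = 0.0286, adjusted p = 0.0714). Of these, 4 were higher and 1 lower. The suprabasal keratin genes Krt10 and Krt1 made up most of the difference, with means of 15650 and 2488 CPM in CTR and 31131 and 18366 CPM in SKO.

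Cebpa and Cebpb had the same highest and lowest SKO library, SKO 1 (504 and 123 CPM) and SKO 4 (441 and 77.4 CPM), and both were highest among CTR libraries in CTR 4 (471 and 100.5 CPM). The summed keratinocyte markers had the same order, highest in SKO 1 (74550 CPM) and CTR 4 (37887 CPM) and lowest of SKO in SKO 4 (57197 CPM). The summed Langerhans and myeloid markers were likewise highest in SKO 1 (492 CPM) and lowest in SKO 4 (358 CPM) among SKO libraries, but highest in CTR 3 (335 CPM) among CTR libraries. Melanocyte markers were also highest in SKO 1 (556 CPM) and lowest in SKO 4 (332 CPM), but highest in CTR 1 (364 CPM) among CTR libraries. The remaining marker lists had another highest or lowest SKO library. These orders were noticed in the data and were not tested.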
